A study of Homo sapiens with 6 samples.

Results

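The 37 genes described here encode enzymes that make purine and pyrimidine nucleotides, turn them into the deoxynucleotides used for DNA, or recover them by salvage. They were taken by gene symbol from a list of names, and all 37 were found among the 18126 symbols of the deposited tables. RNA came from 786-O, an established cell line of human clear cell renal carcinoma that carries no functional VHL, and the labels say that the cells were transfected. There were 3 libraries of 786-O cells transfected with siTEAD4, by its name an siRNA against TEAD4, which encodes a transcription factor that works with the coactivator YAP. They were compared with 3 libraries of 786-O cells transfected with what the labels call Control. Sequence and dose of the siRNA, the content of the control and the time of harvest were not given in the sources used here, and every library comes from the same line. The labels do not say whether the libraries of a group were grown as separate cultures, so each p-value measures the spread between libraries, which may be technical.

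The column headings conflict with the labels. The siTEAD4 libraries carry the heading "Tead_Inhibitor" and Control 2 and Control 3 the heading "Vehicle", while Control 1 has no such heading. Groups follow the labels, and a direction given for siTEAD4 is that of the libraries labelled siTEAD4. TEAD4 itself was at 8.92, 7.65 and 7.52 FPKM in siTEAD4 1, 2 and 3, against 12.52, 16.99 and 11.28 FPKM in Control 1, 2 and 3, so the libraries labelled siTEAD4 held less of it without overlap. FPKM (fragments per kilobase of transcript, scaled to the mapped fragments of the library) is scaled by transcript length. Levels of different genes can be set side by side only roughly, since trends on transcript length and GC content can remain. FPKM carries no read counts, so the depth is unknown. Of 6 markers of the renal line, all were detected, with summed levels of 3643.11 to 3790.21 FPKM in siTEAD4 and 3848.73 to 4554.65 FPKM in Control. VIM made up most of that sum (3064.4 ± 50.6 FPKM in siTEAD4 and 3340.7 ± 285 FPKM in Control; SD, n = 3 each). Of the others, CDH6 fell to 29.3 ± 1.17 FPKM in siTEAD4, against 154.8 ± 23.9 FPKM in Control (-2.35, limma adjusted p = 3.42e-06), EPAS1 rose (0.32, adjusted p = 0.035), and PAX8, KRT8 and KRT18 did not pass. The 4 leukocyte markers summed to 0.61 to 0.74 FPKM in siTEAD4 and 0.63 to 0.84 FPKM in Control, the 2 endothelial markers to at most 0.17 FPKM, and HBB of red cells to at most 0.08 FPKM. The fibroblast markers COL1A1 and LUM were low (1.07 to 1.21 FPKM summed in siTEAD4 and 3.03 to 3.52 FPKM in Control), and the fibroblast marker DCN was listed at 0 in every library.

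Cells build purine rings on phosphoribosyl pyrophosphate in a chain of reactions that ends in inosine monophosphate, from which adenine and guanine nucleotides branch. Pyrimidines are built as a ring first and then joined to the same sugar, to give uridine monophosphate and from it the cytidine nucleotides. Ribonucleotide reductase turns ribonucleoside diphosphates into deoxynucleotides, thymidylate synthase adds the methyl group that makes thymidylate, and both are busiest in cells that copy DNA. Proliferating cells draw heavily on synthesis, with salvage kinases and phosphoribosyltransferases recovering bases and nucleosides.

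In the siTEAD4 libraries 6 of 12 purine synthesis genes and 3 of 5 pyrimidine synthesis genes rose and none fell, and 3 of 7 deoxynucleotide genes fell and none rose. The difference between these groups of genes was not tested. CTPS1, which makes CTP from UTP, rose to 164.5% of the Control mean, while TYMS, which encodes thymidylate synthase, fell to 42.2% of it. RRM2 and DUT, and TK1 among the salvage genes, which also serve the supply of deoxynucleotides, fell by less. Of the 37 genes, 12 rose and 4 fell at an adjusted p of 0.05 by limma, with Benjamini-Hochberg adjustment over all 11411 genes tested. That is 43.2% of the members, where 44.9% of all tested genes were called, so the share of members called was near that of the transcriptome. Higher calls made up 32.4% of the members against 26.1% of all tested genes, and lower calls 10.8% against 18.8%. Changes were small: 5 members passed with an absolute log2 difference of at least 0.5, against 21.2% of all tested genes that did so. All differences are on the log2(FPKM + 1) scale, siTEAD4 minus Control, and their median was 0.16 over the members and 0.09 over all genes tested. With libraries brought to the same median, the members split into 11 higher and 7 lower, and all genes into 46.9% higher among the called, against 58.2% on the deposited values.

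**Figure D1:**
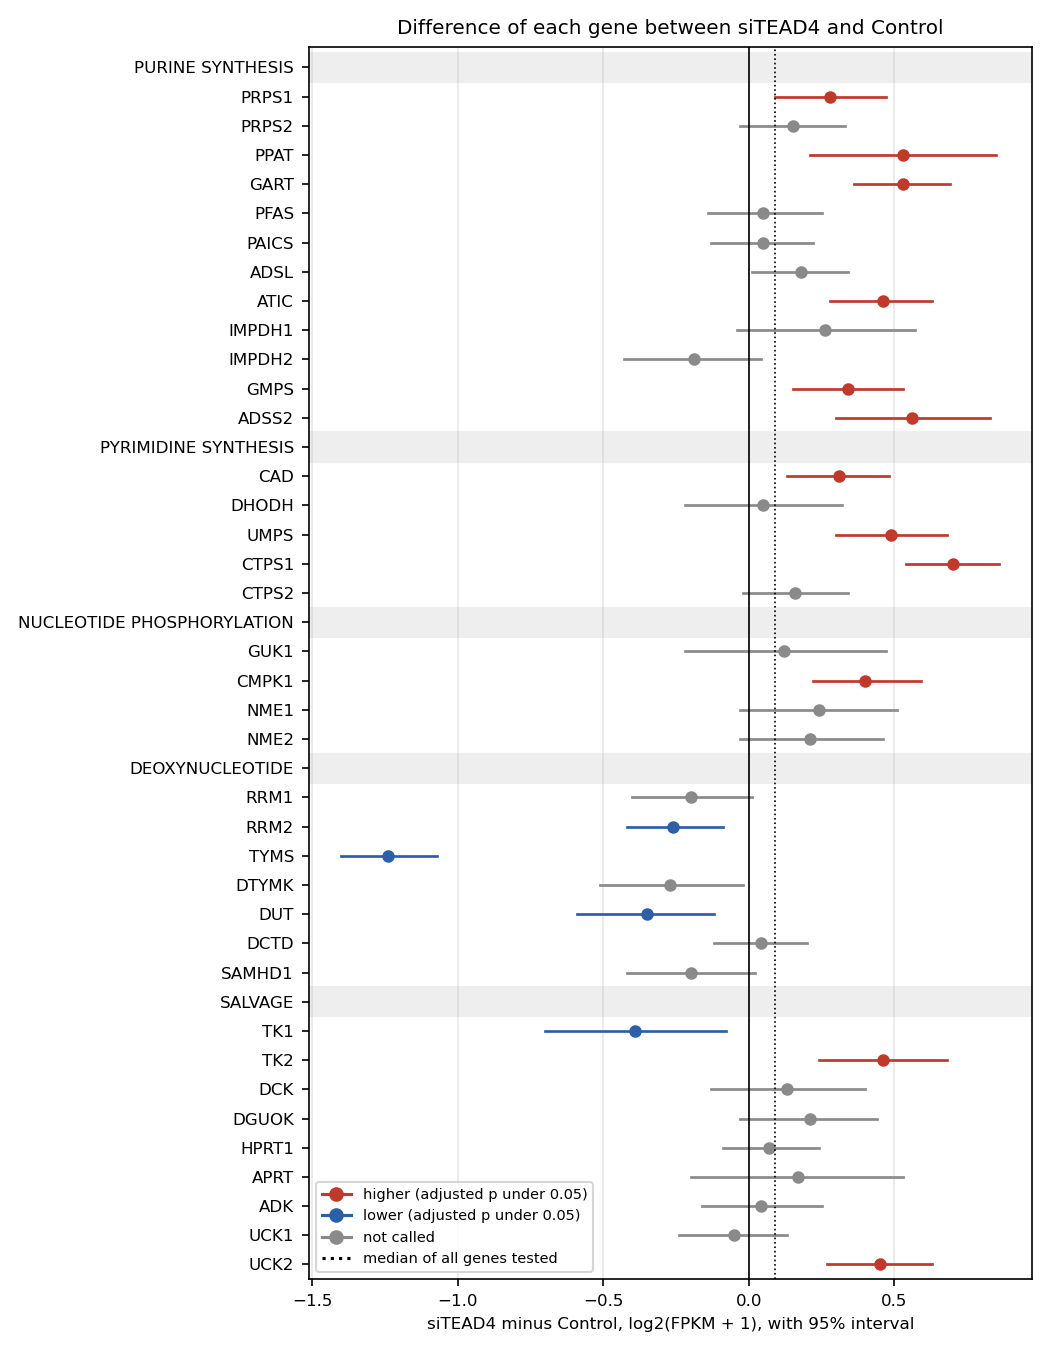
Difference between siTEAD4 and Control for each gene on the log2(FPKM + 1) scale, with 95% intervals from limma, grouped by role; colour marks genes past an adjusted p of 0.05 and the dotted line is the median of all genes tested (0.09). TYMS stands alone at -1.24, the 12 genes that rose lie between 0.28 and 0.70, and no gene of the deoxynucleotide group rose.

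All members were detected, and each passed the filter of 1 FPKM in at least 3 libraries. In Control libraries their means ran from 5.69 FPKM for TK2 to 661.6 FPKM for NME2, with a median of 46.6 FPKM, against a median of 56.8 FPKM in siTEAD4 libraries. By Control level, 31 of the 37 lay above the median of the tested genes and 12 in the top 10%. Summed over the list, nucleotide genes came to 2762.6 ± 66.9 FPKM in siTEAD4 libraries and 2670.5 ± 225 FPKM in Control libraries (SD, n = 3 each). By group of genes, the summed level in siTEAD4 was 68.2% of that in Control for the deoxynucleotide genes, 137.8% for pyrimidine synthesis, 113.4% for purine synthesis, 101.3% for salvage and 115.4% for nucleotide phosphorylation, the group that holds NME2. Phosphorylation sums overlapped (1109.6 to 1205.1 FPKM in siTEAD4, 866.0 to 1136.4 FPKM in Control). So did salvage sums (388.4 to 409.5 FPKM in siTEAD4, 341.2 to 449.0 FPKM in Control). Purine, pyrimidine and deoxynucleotide sums did not overlap. Over all symbols, FPKM summed to 477426.6 to 486298.0 in siTEAD4 and 432777.4 to 496442.8 in Control, so library totals differed too. Libraries of the Control group varied more among themselves than those of siTEAD4 in 30 of the 37 members, by the SD of log2(FPKM). They also did in 84.8% of all tested genes by the SD of log2(FPKM + 1), a slightly different scale. No library overlapped between the groups in 23 of 37 members (62.2%), against 57.7% of all tested genes.

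**Figure D2:**
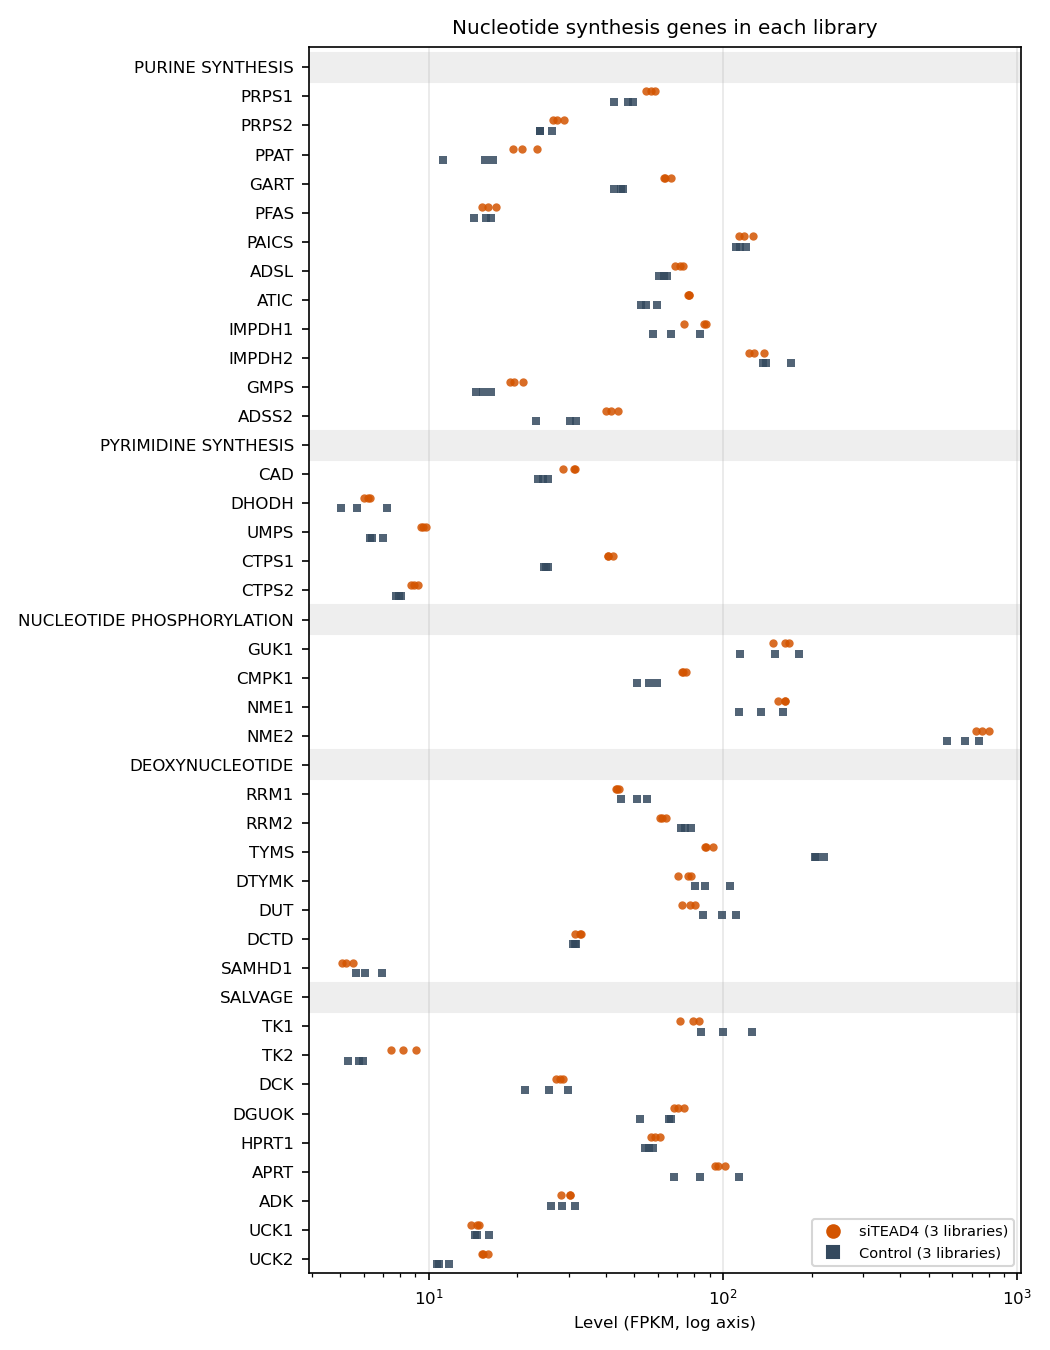
Level of each gene in FPKM on a log axis, with 1 point per library (circles siTEAD4, squares Control; 3 each), grouped by role. NME2 is the highest in all 6 libraries and TYMS shows the widest gap between the groups, at 86.78 to 92.67 FPKM in siTEAD4 and 205.73 to 220.22 FPKM in Control.

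TYMS gave the largest change of the list. Thymidylate synthase methylates dUMP to dTMP with methylene tetrahydrofolate as donor and is the target of fluorouracil. Its transcript was at 86.78, 92.67 and 87.77 FPKM in siTEAD4 1, 2 and 3, against 205.73, 207.44 and 220.22 FPKM in Control 1, 2 and 3. Every siTEAD4 library lay far below the lowest Control library, and the spread within either group was small beside the gap. The log2 difference was -1.24 ± 0.0743 (SE; 95% interval -1.40 to -1.07; limma adjusted p = 7.95e-06), and it passed in each of the 17 other settings, at -1.32 to -1.20. Of the 11411 genes tested, 471 passed with an absolute log2 difference of at least 1, and TYMS was the only member among them. It made up 23.2 ± 0.758% of the summed deoxynucleotide level in siTEAD4 libraries and 37.5 ± 0.874% in Control libraries (SD, n = 3 each). Without it the other 6 genes of that group summed to 295 ± 7.91 FPKM in siTEAD4 and 352 ± 12.6 FPKM in Control. ENOSF1 overlaps the end of TYMS on the opposite strand by 3255 bases, and since the treatment of strand is not given, reads from the shared stretch cannot be told apart. ENOSF1 was at 12.1 ± 1.04 FPKM in siTEAD4 and 12.9 ± 0.396 FPKM in Control (SD, n = 3 each) and did not pass (-0.09, adjusted p = 0.449).

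The TYMS promoter window from RefSeq (250 bases before to 50 after the start site, GRCh38.p14, chr18:657403-657702, plus strand) is shown because this gene changed most, and beside it that of CTPS1 (chr1:40979446-40979745, plus strand), the largest rise. Those of PPAT (chr4:56435566-56435865, minus strand) and GART (chr21:33542843-33543142, minus strand), both purine genes that rose, hold the other searched motifs. Each is written 5′ to 3′ along its own gene, and capitals mark matches on either strand to an E2F-type motif (TTTCCCGC or TTTGGCGC), an E-box (CACGTG) or a TEAD-type motif (CATTCC).
TYMS: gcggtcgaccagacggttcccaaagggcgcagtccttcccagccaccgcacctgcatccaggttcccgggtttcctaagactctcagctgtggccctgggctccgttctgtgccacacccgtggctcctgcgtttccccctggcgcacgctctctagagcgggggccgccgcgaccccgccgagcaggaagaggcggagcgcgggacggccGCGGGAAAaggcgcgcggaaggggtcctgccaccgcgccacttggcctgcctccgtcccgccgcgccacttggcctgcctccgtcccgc
CTPS1: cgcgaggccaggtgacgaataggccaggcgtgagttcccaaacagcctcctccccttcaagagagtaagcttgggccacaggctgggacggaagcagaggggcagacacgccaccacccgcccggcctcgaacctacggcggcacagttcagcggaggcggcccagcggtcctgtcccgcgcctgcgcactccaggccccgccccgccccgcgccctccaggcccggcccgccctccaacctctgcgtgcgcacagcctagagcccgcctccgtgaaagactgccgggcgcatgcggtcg
PPAT: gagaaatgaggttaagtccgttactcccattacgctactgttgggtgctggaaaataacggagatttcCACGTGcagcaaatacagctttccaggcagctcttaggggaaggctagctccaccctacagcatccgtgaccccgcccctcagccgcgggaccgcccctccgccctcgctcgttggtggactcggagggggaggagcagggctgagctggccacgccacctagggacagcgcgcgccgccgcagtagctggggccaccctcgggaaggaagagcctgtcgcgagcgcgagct
GART: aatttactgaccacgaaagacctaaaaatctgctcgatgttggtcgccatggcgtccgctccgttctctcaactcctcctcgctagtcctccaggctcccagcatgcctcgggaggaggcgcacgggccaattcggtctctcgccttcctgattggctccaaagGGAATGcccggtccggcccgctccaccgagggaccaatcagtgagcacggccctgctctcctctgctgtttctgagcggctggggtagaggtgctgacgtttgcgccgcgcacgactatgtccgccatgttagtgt

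TYMS holds 1 match to the E2F-type motif, whose first base is at position -39 from the start site, PPAT an E-box at -182 and GART a TEAD-type match at -86, while the CTPS1 window holds none of these letters. In GENCODE 29 PAICS starts 126 bases from PPAT on the other strand, so this E-box lies inside the PAICS gene. The RefSeq window of PAICS lies elsewhere, and PAICS is counted below without it. Of the 37 members, 35 had a window in RefSeq. In 5 of them (PFAS, PAICS, RRM2, TK2 and DCK) the RefSeq start lay more than 1000 bases from the gene start in GENCODE 29, by 25234 bases for PAICS, so these windows do not cover the GENCODE start. The windows of GART, CTPS1, DCTD, IMPDH1 and CTPS2 do not cover the GENCODE start either. Their RefSeq starts lay 267 (CTPS2) to 599 bases (GART) downstream of it, and a window reaches back 250. The E2F-type letters stood in 3 of these 35 (PRPS2, TYMS and DCK; 8.57%), against 3.88% of the windows of tested genes and 2.31% of all 27305 windows. An E-box stood in 5 (14.3%), against 10.4% of tested genes and 7.43% of all windows; they were PPAT, ATIC, DHODH, NME1 and DCK, of which PPAT and ATIC rose. The TEAD-type letters stood in 5 (14.3%), against 10.7% of tested genes and 14.0% of all windows; they were PRPS1, GART, CMPK1, APRT and ADK, of which the first 3 rose. No motif here is common to all the genes that rose or to all that fell. Of the 12 that rose, 2 hold an E-box, 3 the TEAD-type letters and 0 the E2F-type letters. Of the 4 that fell, 1 holds the E2F-type letters and 0 either of the others. Among the 19 not called, 3 hold an E-box, 2 the TEAD-type and 2 the E2F-type letters. Over the 30 windows whose RefSeq start lay within 1000 bases of the GENCODE start, the shares were 6.67% for the E2F-type letters, 13.3% for the E-box and 16.7% for the TEAD-type letters. A match describes letters in this window and does not show a bound factor.

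The other deoxynucleotide genes were lower or level. Ribonucleotide reductase pairs the catalytic subunit RRM1 with the small subunit RRM2, whose level peaks in S phase. RRM2 stood at 63.82, 61.15 and 61.91 FPKM in siTEAD4 1, 2 and 3, against 77.98, 74.02 and 71.75 FPKM in Control 1, 2 and 3. The groups did not overlap, and RRM2 fell by 0.26 (adjusted p = 0.0202), a call lost when any 1 siTEAD4 library was left out (adjusted p 0.0701 to 0.0992). RRM1 stood at 44.43, 43.13 and 43.46 FPKM in siTEAD4 and 55.07, 44.91 and 51.11 FPKM in Control. Its highest siTEAD4 library was just under the lowest Control library, and it did not pass (-0.20, adjusted p = 0.102), though it did without Control 2 (adjusted p = 0.00392). DUT, which hydrolyses dUTP to dUMP and so both feeds thymidylate synthase and keeps uracil out of DNA, averaged 76.7 ± 3.95 FPKM in siTEAD4 and 98.5 ± 12.7 FPKM in Control (SD, n = 3 each; -0.35, adjusted p = 0.0231). The DUT call was lost on leaving out Control 3 or any 1 siTEAD4 library (adjusted p 0.0552 to 0.0957). DTYMK, the kinase that acts next on dTMP, was at 74.8 ± 3.78 and 90.7 ± 13.1 FPKM in siTEAD4 and Control without passing (-0.27, adjusted p = 0.0727), and passed after rescaling to one median (adjusted p = 0.048). SAMHD1, which breaks deoxynucleoside triphosphates down, was at 5.27 ± 0.223 FPKM in siTEAD4 and 6.22 ± 0.676 FPKM in Control (-0.20, adjusted p = 0.123). DCTD, which makes dUMP from dCMP, was the single gene of the group with a positive difference (0.04, adjusted p = 0.654; 95% interval -0.12 to 0.20). In all, 3 of 7 fell (42.9%, where 18.8% of all tested genes fell) and none rose by limma, with a median of -0.26, against 0.09 over all tested genes. In 6 of 7 every siTEAD4 library lay below every Control library, as in 22.6% of all tested genes. After rescaling to one median 6 of the 7 fell, and 21.5% of all tested genes did.

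TK1, the cytosolic thymidine kinase of S phase, gives dTMP by salvage where TYMS gives it by synthesis. TK1 was at 83.00, 78.77 and 71.21 FPKM in siTEAD4 1, 2 and 3, against 84.21, 125.09 and 100.07 FPKM in Control 1, 2 and 3. The groups did not overlap, but Control 1 lay just above siTEAD4 1. The fall of 0.39 (adjusted p = 0.0453) was lost on leaving out Control 3 or any 1 siTEAD4 library (adjusted p 0.0764 to 0.156), without a filter on low values (0.0885) and without limma's mean-variance trend (0.0504). The ratio of TYMS to TK1 was 1.05, 1.18 and 1.23 in siTEAD4 libraries and 2.44, 1.66 and 2.20 in Control libraries, a comparison chosen after the values were seen and not tested.

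**Figure D3:**
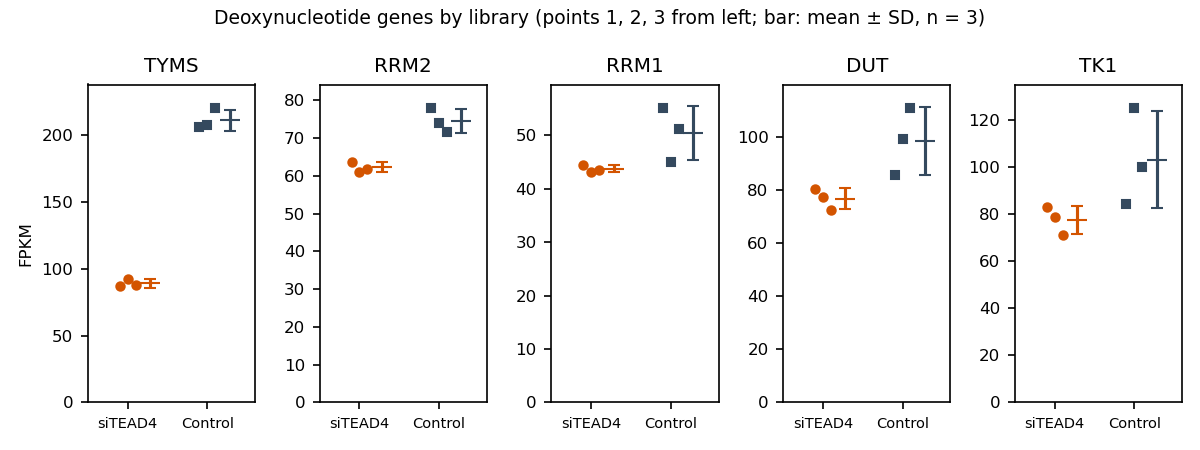
Level in FPKM of 5 deoxynucleotide supply genes by library, on axes that start at 0 (points are libraries 1, 2 and 3 from the left; bars are mean ± SD, n = 3). In all 5 each siTEAD4 library lies below each Control library, with the widest gap for TYMS and the narrowest for RRM1 and TK1.

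Purine synthesis genes rose in 6 of 12 cases and fell in none by limma, with a median of 0.27. That share called is near the 44.9% over all tested genes, of which 26.1% rose and 18.8% fell, with a median of 0.09. The chain opens with PRPS1 and PRPS2, which make phosphoribosyl pyrophosphate. PRPS1 was at 56.93, 54.62 and 58.85 FPKM in siTEAD4 1, 2 and 3, against 49.56, 42.64 and 47.67 FPKM in Control 1, 2 and 3, and rose (0.28, adjusted p = 0.0233), a call lost on leaving out Control 3 or any 1 siTEAD4 library (adjusted p 0.0587 to 0.0995) and under all 3 rescalings (0.0536 to 0.0853). PRPS2 was at 28.91, 26.45 and 27.24 FPKM in siTEAD4, against 23.82, 23.97 and 26.28 FPKM in Control, and did not pass (0.15, adjusted p = 0.151). PRPS1 and PRPS2 thus both lay higher in every siTEAD4 library than in any Control library.

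PPAT, the amidotransferase of the first committed step, was at 20.79, 19.28 and 23.31 FPKM in siTEAD4 1, 2 and 3, against 16.56, 11.20 and 15.51 FPKM in Control 1, 2 and 3. The groups did not overlap although Control 2 was low, and PPAT rose by 0.53 ± 0.141 (SE; adjusted p = 0.0147), except without siTEAD4 3 (adjusted p = 0.0663). GART, which carries several steps of the chain in one protein, was at 63.61, 63.22 and 66.45 FPKM in siTEAD4, against 45.01, 45.81 and 42.49 FPKM in Control. Both groups were tight, and GART rose by 0.53 ± 0.0729 (SE; adjusted p = 0.000603). ATIC, which closes the ring to give inosine monophosphate, rose as well (76.6 ± 0.354 FPKM in siTEAD4 and 55.6 ± 3.60 FPKM in Control; 0.46, adjusted p = 0.00161). In the middle of the chain, PFAS (0.05, 95% interval -0.14 to 0.25) and PAICS (0.05, 95% interval -0.13 to 0.22) overlapped between groups and did not pass, and both were at -0.03 in at least 1 rescaling. PFAS passed as higher (0.20, adjusted p = 0.0323) with trends on transcript length and GC content taken out of each library, a setting chosen after seeing the data. ADSL was at 0.18 (adjusted p = 0.0786), passing without Control 2 (0.0201). PPAT (chromosome 4, 56393362 to 56435615, minus strand) and PAICS (56435741 to 56464579, plus strand, both GENCODE 29 on GRCh38) start 126 bases apart and are read away from each other. Of these neighbours PPAT rose, while PAICS was at 113.50, 117.99 and 126.23 FPKM in siTEAD4 and 120.18, 114.50 and 111.10 FPKM in Control and did not pass (adjusted p = 0.64). The difference between the pair was not tested.

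In the adenine branch, ADSS2, which joins aspartate to inosine monophosphate, was at 41.70, 40.01 and 44.09 FPKM in siTEAD4 1, 2 and 3, against 31.56, 23.18 and 30.18 FPKM in Control 1, 2 and 3, and rose (0.56, adjusted p = 0.00482). ADSL, which also completes this branch, did not pass. In the guanine branch IMPDH1 and IMPDH2 make xanthosine monophosphate and GMPS aminates it. GMPS rose (19.7 ± 1.04 FPKM in siTEAD4 and 15.4 ± 0.906 FPKM in Control; 0.34, adjusted p = 0.0102), except without siTEAD4 3 (adjusted p = 0.0588). IMPDH2, the more abundant of the IMPDH genes, was at 127.85, 138.10 and 122.49 FPKM in siTEAD4, against 136.33, 170.04 and 139.98 FPKM in Control, with siTEAD4 2 above the lowest Control library. It did not pass (-0.19, adjusted p = 0.151), and passed as lower after quantile normalization (0.0231) and with the trends on length and GC content removed (0.00878). IMPDH1 was at 82.5 ± 7.41 FPKM in siTEAD4 and 69.1 ± 12.9 FPKM in Control without passing (0.26, adjusted p = 0.135), and passed as higher without Control 2 (0.00342) and with those trends removed (0.000451).

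Pyrimidine synthesis genes rose in 3 of 5 cases (where 26.1% of all tested genes rose) and fell in none by limma, with a median of 0.31. CAD, which carries the opening steps of the ring, was at 31.07, 31.51 and 28.68 FPKM in siTEAD4 1, 2 and 3, against 23.49, 25.33 and 24.43 FPKM in Control 1, 2 and 3. The groups were apart, and CAD rose by 0.31 ± 0.0779 (SE; adjusted p = 0.0127), except without siTEAD4 1 (adjusted p = 0.0692) or siTEAD4 2 (0.0744). DHODH, the mitochondrial dehydrogenase of the chain, overlapped between groups (6.18 ± 0.147 FPKM in siTEAD4 and 5.98 ± 1.13 FPKM in Control; 0.05, 95% interval -0.22 to 0.32). UMPS, which finishes uridine monophosphate, rose (9.60 ± 0.201 FPKM in siTEAD4 and 6.57 ± 0.384 FPKM in Control; 0.49, adjusted p = 0.00181). CTPS1 was at 40.80, 42.31 and 40.62 FPKM in siTEAD4 1, 2 and 3, against 25.45, 25.07 and 24.71 FPKM in Control 1, 2 and 3. The lowest siTEAD4 library was well above the highest Control library, and the rise of 0.70 ± 0.0708 (SE; adjusted p = 0.000117) was the largest of the list. CTPS2 was at 8.94, 8.67 and 9.19 FPKM in siTEAD4, against 8.06, 7.90 and 7.74 FPKM in Control, apart in every library but without passing (0.16, adjusted p = 0.134).

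Of 4 kinases that phosphorylate the monophosphates and diphosphates, CMPK1, which acts on UMP and CMP, rose (73.7 ± 1.20 FPKM in siTEAD4 and 55.5 ± 4.43 FPKM in Control; 0.40, adjusted p = 0.00416). The nucleoside diphosphate kinase genes NME1 (159.5 ± 4.59 and 136.2 ± 23.4 FPKM in siTEAD4 and Control) and NME2 (763.4 ± 38.1 and 661.6 ± 82.7 FPKM in siTEAD4 and Control) did not pass, nor did GUK1, the GMP kinase (0.12, adjusted p = 0.538). By limma 25.0% of these 4 kinase genes rose, where 26.1% of all tested genes did. All 4 passed as higher without Control 2, a setting in which 58.2% of all tested genes were called, with 4025 of 11257 higher. NME1 and NME2 are closely related neighbours. Their read-through transcript NME1-NME2 is listed too, at 6.79, 6.78 and 25.16 FPKM in siTEAD4 and 5.14, 6.28 and 1.42 FPKM in Control. The split of reads among these 3 is thus uncertain.

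Salvage genes were mixed: of 9, TK2 and UCK2 rose and TK1 fell (33.3% called, where 44.9% of all tested genes were), with a median of 0.13. TK2, the thymidine kinase of mitochondria, was at 9.05, 8.20 and 7.43 FPKM in siTEAD4 1, 2 and 3, against 5.78, 5.98 and 5.32 FPKM in Control 1, 2 and 3, and so moved opposite to TK1 (0.46, adjusted p = 0.00513). UCK2, a uridine and cytidine kinase, was at 15.16, 15.91 and 15.30 FPKM in siTEAD4, against 10.80, 11.75 and 10.67 FPKM in Control (0.45, adjusted p = 0.0023). UCK1, of the same activity, was at 13.89, 14.78 and 14.56 FPKM in siTEAD4, against 14.35, 15.99 and 14.64 FPKM in Control, and overlapped (-0.05, adjusted p = 0.623). The purine salvage genes HPRT1 (0.07, 95% interval -0.09 to 0.24), which recovers hypoxanthine and guanine, ADK (0.04, -0.16 to 0.25), the adenosine kinase, and APRT (0.17, -0.20 to 0.53), which recovers adenine, did not pass. The deoxynucleoside kinase genes DCK (0.13, adjusted p = 0.372) and the mitochondrial DGUOK (0.21, adjusted p = 0.133) did not pass either. Without Control 2, APRT and DGUOK passed as higher (adjusted p = 0.00537 and 0.0288).

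Pairs of genes for one reaction were compared by the share of the first gene in their summed FPKM, over 8 pairs and by two-sided exact permutation of 3 against 3 libraries, which cannot go below p = 0.1. UCK1 made up 48.2 ± 0.479% of UCK1 plus UCK2 in siTEAD4 and 57.5 ± 0.408% in Control (SD, n = 3 each), so the more abundant of the pair was UCK2 in siTEAD4 libraries and UCK1 in Control libraries. CTPS1 made up 82.2 ± 0.735% of its pair in siTEAD4 and 76.0 ± 0.1% in Control. IMPDH1 made up 38.9 ± 1.53% in siTEAD4 and 31.6 ± 1.63% in Control, and TK1 90.4 ± 0.227% in siTEAD4 and 94.7 ± 0.965% in Control. In these 4 pairs the groups did not overlap, which gives the smallest p the exact test allows (0.1, and 0.2 adjusted over the 8 pairs). By level, 57.7% of all tested genes did not overlap between the groups either, and no such share was computed over other gene pairs. The shares of PRPS1 (exact p = 0.3), NME1 (0.7), DCK beside DGUOK (0.8) and RRM2 beside RRM1 (1.0) overlapped between groups. RRM2 made up 58.8 ± 0.160% of the reductase pair in siTEAD4 and 59.7 ± 2.16% in Control.

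**Figure D4:**
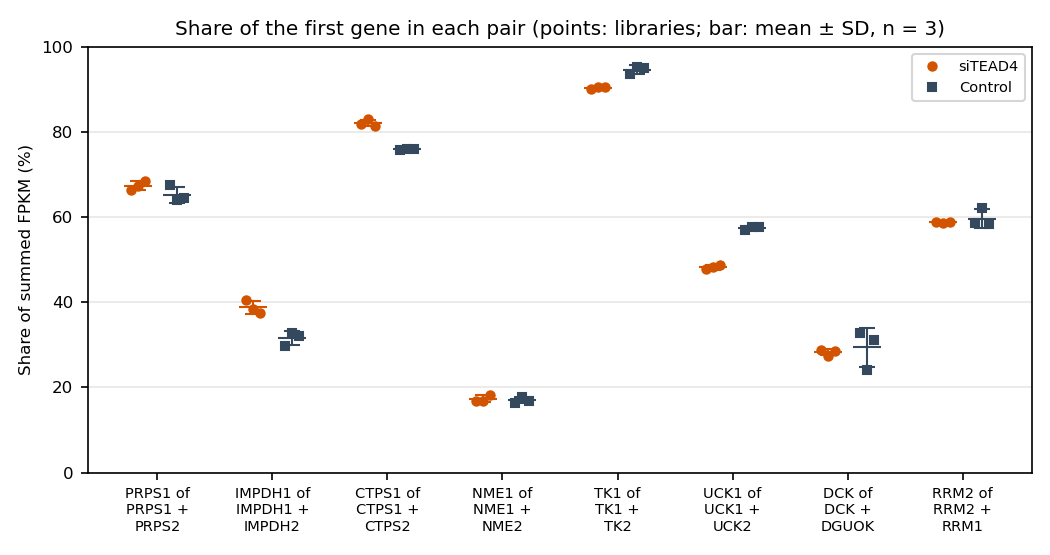
Share of the first gene in the summed FPKM of 8 gene pairs, in percent, with 1 point per library (circles siTEAD4, squares Control) and bars for mean ± SD (n = 3). The shares of IMPDH1, CTPS1, TK1 and UCK1 do not overlap between the groups, with UCK1 at 48.2% in siTEAD4 and 57.5% in Control.

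Genes around the pathway were read from the same fit, in which 44.9% of all tested genes were called, 26.1% higher and 18.8% lower. Of 15 genes of folate and one-carbon supply, which provides carbon for the purine ring and the methyl group for thymidylate, 14 were tested, and 6 rose and 5 fell (78.6% called), with a median of 0.02. ALDH1L2 (0.96), a mitochondrial formyltetrahydrofolate dehydrogenase, and MTHFD2 (0.79), a mitochondrial dehydrogenase and cyclohydrolase, rose. The cytosolic hydroxymethyltransferase gene SHMT1 was at 18.35, 18.17 and 17.52 FPKM in siTEAD4 1, 2 and 3, against 32.56, 38.33 and 31.36 FPKM in Control 1, 2 and 3, and fell (-0.88, adjusted p = 0.000139).

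Of 42 genes of nucleotide breakdown, interconversion and transport, 36 were tested, of which 12 rose and 1 fell. The 36.1% called was below the 44.9% of all tested genes, and the median was 0.12. UPP1, which splits uridine into uracil and ribose phosphate, was at 62.42, 60.61 and 59.27 FPKM in siTEAD4 1, 2 and 3, against 18.75, 26.02 and 21.76 FPKM in Control 1, 2 and 3 (1.43, adjusted p = 3.16e-05), more than any member moved. MTAP (0.69), which recovers adenine from methylthioadenosine, and RRM2B (0.57), the reductase subunit used outside S phase, rose, and the nucleoside transporter gene SLC29A1 fell by 0.41. Of 13 genes of proliferation and S phase, 3 rose and 4 fell (53.8% called, where 44.9% of all tested genes were): MKI67 (-0.98) and TOP2A (-0.54) were among the falls, and CCNE1 (0.60) and CDC6 (0.58) among the rises. PCNA, a replication clamp, was at 161.5 ± 4.94 FPKM in siTEAD4 and 164.2 ± 2.48 FPKM in Control (-0.02, adjusted p = 0.799), and E2F1 did not pass (0.20, adjusted p = 0.247). MYC, which encodes a transcription factor known to drive nucleotide synthesis genes, rose (48.59, 50.79 and 44.56 FPKM in siTEAD4 1, 2 and 3, against 22.17, 23.56 and 22.89 FPKM in Control 1, 2 and 3; 1.04, adjusted p = 2.87e-05). The part of the cell cycle genes or of MYC in the members' changes was not tested. In bulk RNA, a changed share of cells in any phase of the cycle and a changed amount of RNA per cell cannot be told apart.

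Without Control 2, 19 members were higher and 6 lower (67.6% called), where 58.2% of all tested genes were called. Without any 1 siTEAD4 library, 9 or 10 members were higher and 1 was lower (27.0% to 29.7% called), where 30.0% to 30.6% of all tested genes were called. Without Control 1 the members split into 12 higher and 5 lower (45.9% called, where 50.8% of all tested genes were). Leaving out Control 3 gave 11 higher and 2 lower (35.1% called, where 32.0% of all tested genes were). The 9 members called in each of the 17 other settings were GART, ATIC, ADSS2, UMPS, CTPS1, CMPK1, TK2, UCK2 and TYMS. Besides TYMS, some of these overlap other genes. GART shares 874 bases with SON on the opposite strand. SON averaged 94.2 FPKM in siTEAD4 and 84.9 FPKM in Control and did not pass (0.15, limma adjusted p = 0.131). TK2 shares 9310 bases with the protein-coding AC010542.3 on its own strand. UCK2 shares 9889 bases with the antisense AL358115.1 on the opposite strand. Reads from these shared stretches cannot be told apart here either. GENCODE names processed or other pseudogenes after several members, with 8 for DUT, 7 each for PAICS and IMPDH1 and 3 each for RRM2 and HPRT1, and none of them is a row of the tables. How reads shared with such copies were counted is not given in the sources used here.

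**Figure D5:**
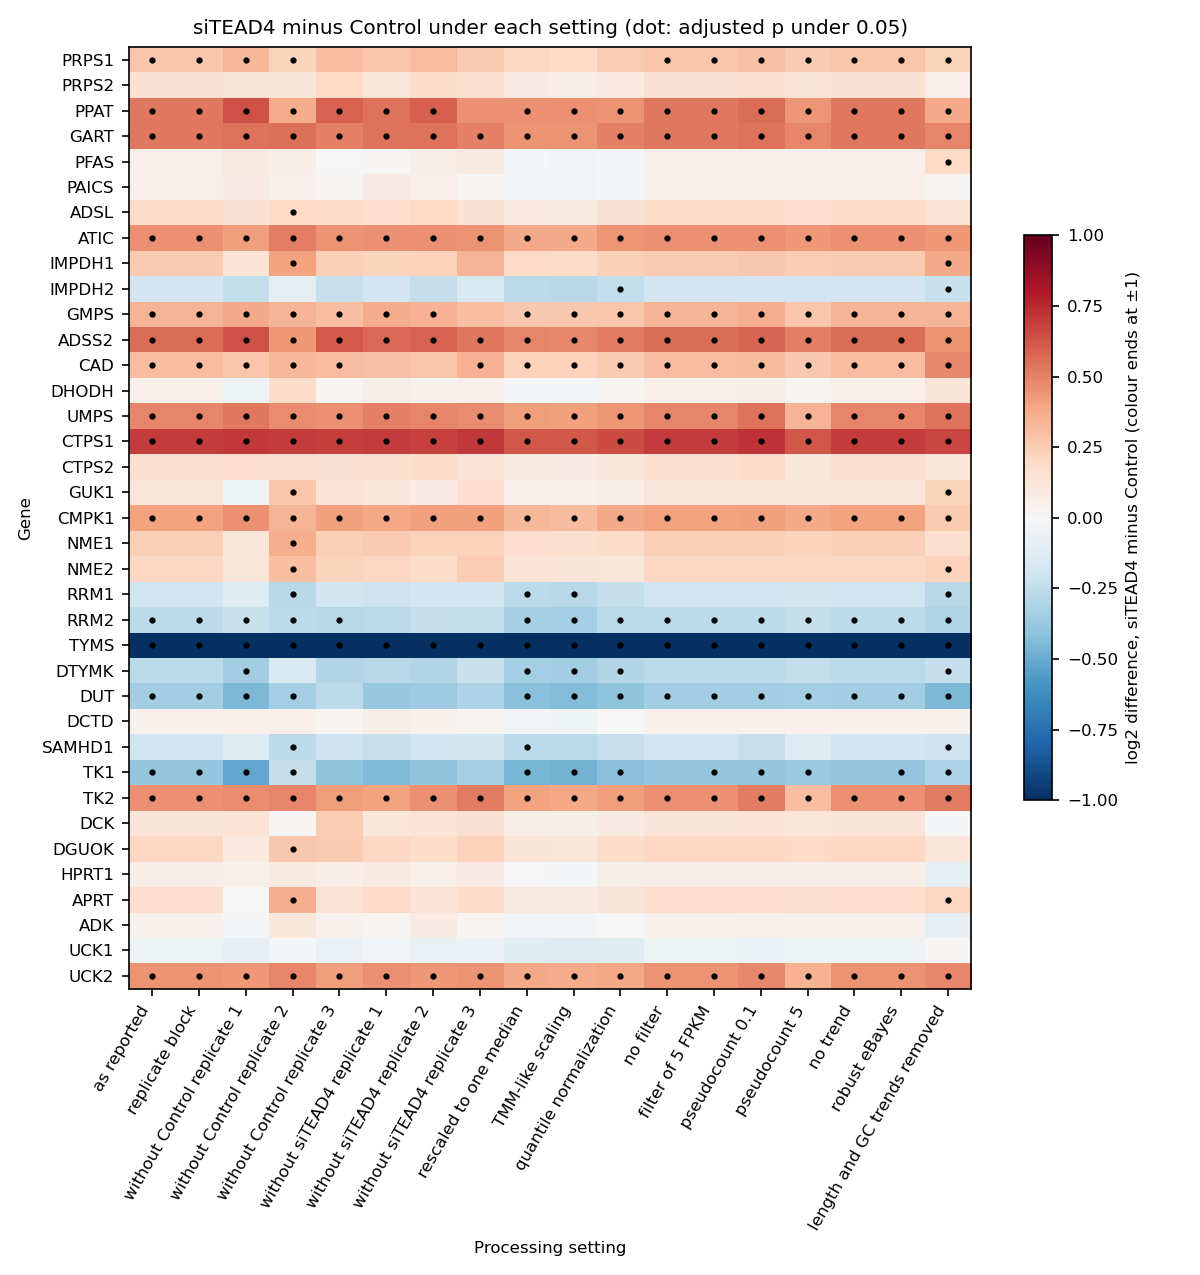
Log2 difference, siTEAD4 minus Control, of each gene (rows) under the reported setting and 17 others (columns), where colour shows the value up to ±1 and a dot an adjusted p under 0.05. The row of TYMS is dark blue and dotted throughout, CTPS1 is red and dotted throughout, and the column without Control replicate 2 has more dots than that as reported.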

How the data were processed

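Per the labels' protocols, Trizol was used to extract RNA of 786-O cells and libraries followed BGISEQ-500 protocols. The authors deposited 1 table of FPKM values per library, with 2 decimals, the unit being named per the file headers; for Control 1 no unit is named, and FPKM was assumed since symbols and range match the other tables. The submitters' processing notes name GRCh38 as genome build; aligner, counting tool, annotation and strand setting were not given in the sources used here. Whole reads could not be recovered: over 2096 genes with low values, 18.6% of the 6576 ratios between libraries were within 0.1 of a whole number (20% if spread evenly), so depth is unknown and no counting interval is given.

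The 11411 genes that reached 1 FPKM in 3 or more libraries were fitted as log2(FPKM + 1) with limma 3.58.1 in R 4.3.3, with a mean-variance trend and group as the only term. This scale understates low genes' changes. Benjamini-Hochberg adjustment ran over all tested genes, with calls under 0.05; intervals are 95%. Groups came from the sample titles. All members are named; those called with an absolute difference of at least 0.5, 7 fixed genes and the paralog pairs have values per library, and other pathway genes are up to 4 of the largest called changes per list; a few that this rule names are left out of the text. Members and lists were chosen with earlier results of these data known. Promoter windows came from RefSeq (GRCh38.p14) and coordinates from GENCODE 29. Alternatives were 3 rescalings, omission of each library in turn, a replicate block, other filters and pseudocounts, limma without trend or with robust eBayes and, chosen after seeing the data, removal of trends on transcript length and GC content (spline fits with 5 degrees of freedom; 99.5% of tested genes had a length).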

Additional observations from a re-analysis of the deposited data

How the results depend on the processing

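Of the 16 calls, 9 held in all 17 other settings and 7 (PRPS1, PPAT, GMPS, CAD, RRM2, DUT and TK1) ended in at least 1; 12 of the 21 uncalled members passed in at least 1, and no called member changed sign. The number of members called lower was 4 as reported, 7 after rescaling to one median, 6 after TMM-like scaling, 6 after quantile normalization and 8 with length and GC trends removed, a setting chosen after seeing the data, where 17 were higher. Over all tested genes lower calls moved as well, from 2141 as reported to 2455, 2539, 2305 and 2657 in the same order. Higher calls over all tested genes were 4135 with length and GC trends removed, against 2982 as reported. Leaving out 1 library gave 9 to 19 members higher, 1 to 6 lower and 3403 to 6547 of all genes called, against 5123. The labels do not say whether same-numbered libraries are paired. Deviations of same-numbered libraries from their group mean correlated at -0.163, 0.272 and 0.09, and not every library correlated best with its own number. With 3 libraries per group these correlations cannot settle whether the libraries are paired. With the replicate block 12 members were higher and 4 lower, as without it, and 5180 of all genes were called. Without a filter 5007 genes were called. When 1 library was left out, the NME1 share differed by -0.178 to 0.655 percentage points, the share of DCK by -3.77 to 0.6 and that of RRM2 by -1.64 to 0.279, so these 3 have no settled sign; the other 5 pairs kept theirs. The cause of these shifts was not tested. With no read counts, what depth limits cannot be stated. The smallest absolute log2 difference among the called members was 0.26, so smaller changes may have been missed.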
